A study of Mus musculus with 6 samples.

Results

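The genes described here are 10 membrane carriers that bring amino acids into activated T cells, measured in mouse CD8+ T cells kept with or without palmitate. They were taken as a named set of gene symbols, put together with earlier results of these data known: Slc7a5, Slc3a2, Slc1a5, Slc38a1, Slc38a2, Slc7a1, Slc7a6, Slc1a4, Slc1a2 and Slc7a3. All 10 were found among the 29370 genes of the count matrix, and all 10 were among the 12068 genes with enough reads to be tested. In the annotation, Slc7a5 and Slc7a6 lie on chromosome 8, Slc38a1 and Slc38a2 on 15, Slc3a2 on 19, Slc1a5 on 7, Slc7a1 on 5, Slc1a4 on 11, Slc1a2 on 2 and Slc7a3 on X. The palmitate group was 3 libraries from wild-type (WT) CD8+ T cells in complete T cell medium with 100 µM palmitate, a saturated fatty acid, for 48 h. They were set against 3 libraries from WT control CD8+ T cells, also at 48 h. Cells of both groups came from mouse pancreas, spleen and lymph nodes. The labels do not give the age or number of mice, how the cells were stimulated, or a vehicle for the control cells. Nothing in the labels says that the replicates were separate cultures or animals, and the p-values below therefore reflect library-to-library variation that could be purely technical.

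A T cell that is activated builds protein quickly and has to import amino acids to do so. Slc7a5 (LAT1) is the light chain that carries out the exchange of large neutral amino acids such as leucine, and it works only as a dimer with the heavy chain Slc3a2 (CD98hc), which also pairs with the related light chain Slc7a6 (y+LAT2). Glutamine enters through Slc1a5 (ASCT2) and through the sodium-coupled carriers Slc38a1 (SNAT1) and Slc38a2 (SNAT2). Slc1a4 (ASCT1) carries alanine, serine and cysteine, Slc7a1 (CAT1) and Slc7a3 (CAT3) carry arginine and lysine, and Slc1a2 (GLT-1) is a glutamate carrier best known from astrocytes. Myc and Atf4 are transcription factors known to drive many of these genes, Myc through the E-box and Atf4 through the C/EBP-ATF response element (CARE).

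Promoter windows, running from 250 bases before to 50 bases after the annotated start, were found in RefSeq (build GRCm38.p6) for 6 of the 10 genes, with 8 windows in all. No entry was held for Slc7a5, Slc1a5, Slc38a1 and Slc7a3. Windows of 3 genes are printed because the results turn on them: Slc1a2 had the largest fold change of the 10, Slc3a2 was the one gene whose count was called higher, and Slc1a4 was the one whose window held a searched motif. The window of Slc1a2 lies at chr2:102706188-102706487 on the plus strand, that of Slc3a2 at chr19:8713848-8714147 on the minus strand, and that of Slc1a4 at chr11:20332664-20332963 on the minus strand. Capitals mark the CARE match, and each sequence runs 5′ to 3′ on the strand of its gene.
Slc1a2: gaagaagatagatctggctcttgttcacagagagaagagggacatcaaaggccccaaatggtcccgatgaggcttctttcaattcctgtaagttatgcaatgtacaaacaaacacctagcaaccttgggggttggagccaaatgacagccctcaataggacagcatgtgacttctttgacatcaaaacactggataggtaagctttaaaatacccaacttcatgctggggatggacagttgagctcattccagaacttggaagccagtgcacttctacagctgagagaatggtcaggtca
Slc3a2: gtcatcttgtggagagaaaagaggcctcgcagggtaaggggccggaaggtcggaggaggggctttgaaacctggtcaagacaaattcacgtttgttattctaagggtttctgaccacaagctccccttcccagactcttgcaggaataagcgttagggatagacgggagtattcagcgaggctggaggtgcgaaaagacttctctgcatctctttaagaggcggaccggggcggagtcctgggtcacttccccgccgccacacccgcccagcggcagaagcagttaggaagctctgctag
Slc1a4: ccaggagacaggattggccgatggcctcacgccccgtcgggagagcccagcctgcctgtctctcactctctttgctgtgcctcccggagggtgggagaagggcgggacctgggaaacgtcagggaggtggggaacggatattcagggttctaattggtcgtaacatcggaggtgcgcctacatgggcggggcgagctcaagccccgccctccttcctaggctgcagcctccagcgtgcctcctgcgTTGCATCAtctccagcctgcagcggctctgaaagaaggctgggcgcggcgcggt
The motifs searched, on both strands, were the E-box CACGTG, which reads the same on either strand, and CARE as TGATGNAA or its reverse complement TTNCATCA. The match in Slc1a4 reads TTGCATCA and covers bases 247 to 254 of the window, across the annotated start. CARE letters were present in 3.97% of the 32851 RefSeq windows of this length and E-box letters in 7.15%. None of the 8 windows held the E-box letters, which says only that these letters are not in these windows.

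Total counts per library were 16724588 to 24777611 in palmitate libraries and 26042768 to 29362276 in control libraries. T cell markers were expressed throughout, 7 of 7. Their summed level was 1749 to 1965 CPM (library-size scaled counts) with palmitate and 1273 to 1516 CPM in controls. Cd8a alone stood at 476 to 545 CPM against 250 to 378 CPM. Cd2 (195 to 212 against 167 to 237 CPM) and Lck (263 to 335 against 252 to 276 CPM) overlapped between groups. The other T cell markers were higher in every palmitate library than in any control. Markers of CD4 or regulatory T cells, myeloid cells, and pancreatic acinar and islet cells were near 0, at under 1 CPM in every library for the summed CD4 and regulatory list and with Ctrb1, Ins1, Ins2 and Sst at 0. B or plasma cell markers, 7 of 7 with a count, summed to 273 to 302 CPM with palmitate and 177 to 243 CPM in controls. Most of that was Ighm, at 231 to 250 CPM against 157 to 227 CPM. Jchain (6.78 to 11.8 against 1.24 to 2.50 CPM), Igkc (6.98 to 19.8 against 2.79 to 6.10 CPM) and Cd79a (0.524 to 1.19 against 0.138 to 0.281 CPM) were low and higher in every palmitate library than in any control. Red cell markers summed to 4.12 to 6.64 CPM with palmitate and 0.987 to 2.00 CPM in controls, mostly from Hbb-bs. The stromal and endothelial list, nearly all of it Pecam1, summed to 46.6 to 63.7 against 35.5 to 41.9 CPM, and the NK list, nearly all of it Eomes, to 143 to 162 against 167 to 185 CPM. The other NK markers were low and overlapped between groups. Klrb1c was at 0.686 to 1.49 against 0.550 to 0.881 CPM, and Ncr1 at 0.0403 to 0.656 against 0.103 to 0.634 CPM. Each of these sums thus follows a single gene and is not a measure of NK, stromal or endothelial cells. The part of these shifts in any transporter result was not tested, and in bulk RNA fewer cells of a type and less RNA per cell cannot be told apart.

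Of the 10 transporters, 3 changed with palmitate in the gene matrix: Slc3a2 rose, and Slc38a1 and Slc1a2 fell. Each gene was tested by quasi-likelihood in edgeR, p-values were adjusted by Benjamini-Hochberg over all 12068 genes, and a gene was called at an adjusted p under 0.05. Over all genes tested it called 22.9% in either direction, 11.1% higher and 11.7% lower, so 3 of 10 is near the background. With upper-quartile scaling the split over all genes was 1651 higher and 1052 lower, against 1343 and 1416 in the test above. The median log2 fold change of the 10 was -0.13, beside 0.02 for all genes tested. Palmitate and control libraries did not overlap in CPM for 4 of the 10, Slc3a2, Slc38a1, Slc7a6 and Slc1a2, where 42.9% of all genes tested did not overlap. With the replicate number as a block the background was 33.1% and the same 3 transporters were called. Over all genes, 2759 calls were made with the 6 libraries. Leaving out control replicate 3, 2 or 1 gave 690, 1353 or 3433 calls, and leaving out palmitate replicate 3, 2 or 1 gave 1304, 1651 or 1443. The number of transporters called was 1 without control 3, palmitate 3 or palmitate 2, and 2 or 3 in the other 3 fits.

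**Figure D1:**
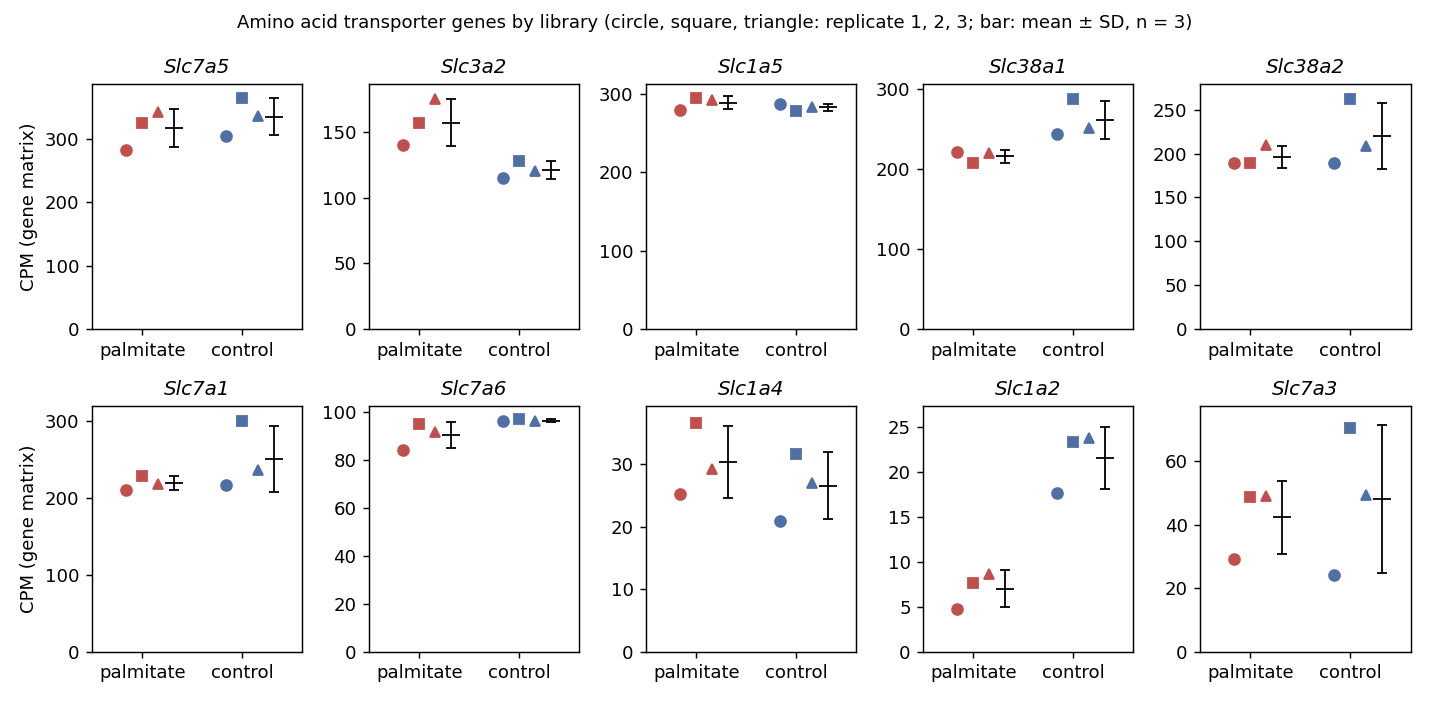
CPM from the gene matrix for each of the 10 genes, with palmitate libraries on the left and control libraries on the right of each panel; symbols are replicates 1 to 3 and the bar is the mean ± SD (n = 3). The points of the groups lie apart for Slc3a2, Slc38a1, Slc7a6 and Slc1a2, and by far the widest gap in proportion is that of Slc1a2, at 4.72 to 8.65 CPM with palmitate and 17.6 to 23.8 CPM in controls.

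The deposited gene matrix does not hold all reads of every gene, and this bears on 2 of the 3 calls. The gene counts were matched, within 1.5 reads, by sums over part of the gene's transcripts in the transcript tables. For Slc7a5, Slc1a4, Slc1a2 and Slc7a3 the matrix held 100% of the transcript reads, and for Slc1a5 it held 99.5%. For Slc3a2 it held 63.4%, from 2 of the 9 transcripts with reads, for Slc7a6 79.9%, for Slc38a1 83.6% from 3 of 7, for Slc38a2 85.9% and for Slc7a1 96.8%. The same test was therefore also run on the sums over all transcripts, where 25.8% of 13082 genes were called, and on those sums with offsets for the transcripts' effective length, where 19.6% were called. In both, 1 of the 10 transporters was called, Slc1a2.

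**Figure D2:**
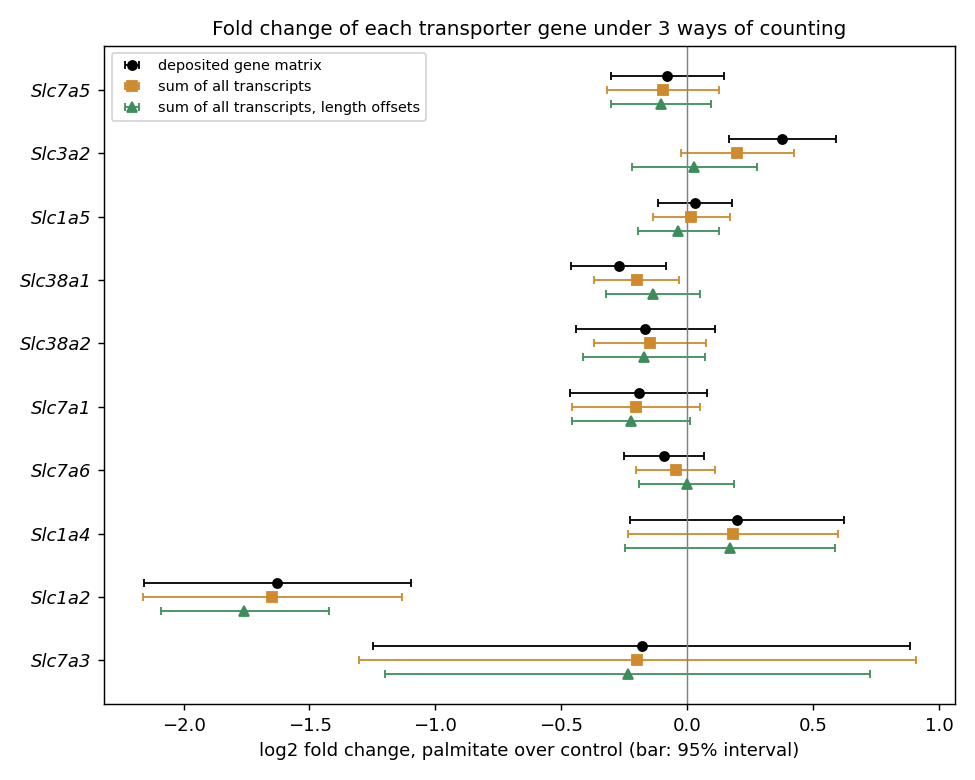
Log2 fold change of palmitate over control with its 95% interval for each gene, from the deposited gene matrix (circles), the sum of all transcripts (squares) and that sum with length offsets (triangles). Slc1a2 lies far below 0 in all 3, between -1.63 and -1.76, while Slc3a2 moves from 0.38 to 0.03.

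Slc1a2, the glutamate carrier, was the transporter with the largest change. Its counts were 117, 195 and 145 in palmitate libraries and 512, 582 and 674 in control libraries. Every palmitate library was far below every control library, although all 3 were also the shallower libraries. In CPM the mean was 7.01 ± 2.05 with palmitate and 21.6 ± 3.43 in controls (SD, n = 3 each). The log2 fold change was -1.63 ± 0.23 (SE), or 0.323 times the control level, with an adjusted p of 0.00533 by edgeR. It was called in all 6 fits that left out 1 library, at log2 fold changes of -1.80 to -1.41, and in each of the other settings tried for it. Sums over all transcripts gave -1.65 and sums with length offsets -1.76, at adjusted p of 0.00288 and 0.000734 by edgeR. Markers of astrocytes, the cells best known for Slc1a2, were low, and the 5 markers summed to 2.33 to 3.15 CPM with palmitate and 1.48 to 2.17 CPM in controls. Aqp4 had no read, and Gfap reached 0.0802 CPM in 1 control library. The largest part of the sum was Gja1, at 1.61 to 2.40 CPM with palmitate and 0.688 to 0.962 CPM in controls, higher in every palmitate library.

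Reads of Slc1a2 came from 8 of its 12 transcripts. The short protein-coding Slc1a2-201, of 2127 bases, held 68.2% of them with palmitate and 71.4% in controls. Its level was 2.74, 4.81 and 5.34 CPM in palmitate libraries and 10.5, 17.1 and 15.6 CPM in control libraries. The long protein-coding Slc1a2-202, of 11595 bases, was at 1.21, 1.86 and 1.91 CPM with palmitate and 3.23, 4.54 and 4.71 CPM in controls. Both transcripts were lower in every palmitate library than in any control library, at log2 fold changes of -1.75 ± 0.32 and -1.33 ± 0.28 (SE). Neither passed at the transcript level, where the adjusted p by edgeR was 0.0794 for Slc1a2-201 and 0.105 for Slc1a2-202.

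Slc3a2, the heavy chain shared by the leucine carrier Slc7a5 and by Slc7a6, rose in the gene matrix. It stood at 140, 157 and 175 CPM in palmitate libraries and at 115, 128 and 120 CPM in control libraries. The groups did not overlap, and the spread was wider with palmitate (157 ± 17.6 against 121 ± 6.64 CPM, SD, n = 3 each). The log2 fold change was 0.38 ± 0.09 (SE), with an adjusted p of 0.0245 by edgeR. The call was lost when control 3 was left out (log2 fold change 0.37, adjusted p 0.0953), and likewise for palmitate 3 (0.29, 0.0798) and palmitate 2 (0.37, 0.0652). It was also lost when all transcripts were counted: the sums were 185, 220 and 232 CPM with palmitate and 169, 197 and 189 CPM in controls. These sums overlapped between groups, at a log2 fold change of 0.20 ± 0.10 (SE) and an adjusted p of 0.167 by edgeR, and with length offsets the value was 0.03 ± 0.11 with an adjusted p of 0.88.

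The transcripts of Slc3a2 show where the counts part. Slc3a2-201 and Slc3a2-202, both protein-coding and both in the matrix, held 36.2% and 30.8% of the reads with palmitate and 31.3% and 28.7% in controls. Slc3a2-207, a shorter protein-coding transcript of 1393 bases that the matrix leaves out, held 29% with palmitate and 34.6% in controls. Slc3a2-201 was at 66.0, 73.3 and 90.9 CPM in palmitate libraries and at 53.5, 63.7 and 58.4 CPM in controls, without overlap. Slc3a2-207 was at 49.5, 65.9 and 66.7 CPM with palmitate and at 54.1, 71.2 and 68.9 CPM in controls, with overlap. The log2 fold change was 0.39 ± 0.14 for Slc3a2-201, 0.26 ± 0.12 for Slc3a2-202 and -0.09 ± 0.16 for Slc3a2-207 (SE). None of the 3 passed, with adjusted p of 0.257, 0.354 and 0.848 by edgeR on all transcripts.

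The light chains Slc7a5 and Slc7a6 did not pass the test. Slc7a5 stood at 283, 326 and 342 CPM in palmitate libraries and at 305, 364 and 337 CPM in controls. Its groups overlapped, with a log2 fold change of -0.08 (95% interval -0.30 to 0.14) and an adjusted p of 0.58 by edgeR. Slc7a6 was at 84.3, 95.2 and 91.6 CPM with palmitate and at 96.1, 97.0 and 96.1 CPM in controls. Here the groups stood apart by a narrow margin, and the log2 fold change was -0.09 (95% interval -0.25 to 0.07, adjusted p 0.357 by edgeR). One transcript, Slc7a5-201, held 99.6% of the Slc7a5 reads in both groups. Reads of Slc7a6 came mainly from Slc7a6-201, with 78.3% under palmitate and 81.3% in controls, and from the decay-targeted Slc7a6-203, with 14.8% and 13.0%. Slc7a6-207, which keeps an intron, held 5.96% and 4.95%.

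Ratios of light to heavy chain depended on which Slc3a2 transcripts were counted. By summed TPM, a transcript level scaled for length and depth, Slc7a5 over Slc3a2 was 0.651, 0.509 and 0.631 in palmitate libraries and 0.676, 0.648 and 0.626 in control libraries. The groups overlapped, the log2 difference was -0.13, and the exact two-sided permutation test gave p = 0.5, or 0.8 adjusted over the 4 ratios tested. For Slc7a6 over Slc3a2 the log2 difference was -0.03 in TPM (exact permutation p = 0.8, adjusted 0.8). From matrix CPM the Slc7a5 ratio was 2.03, 2.08 and 1.96 with palmitate and 2.66, 2.85 and 2.81 in controls. Those groups did not overlap, at a log2 difference of -0.45, and Slc7a6 over Slc3a2 differed by -0.47. Both had an exact permutation p of 0.1, the smallest that 3 against 3 libraries allow, and 0.2 after adjustment.

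Among the glutamine carriers, Slc38a1 fell in the gene matrix by a small margin. It stood at 222, 207 and 220 CPM in palmitate libraries and at 244, 288 and 251 CPM in control libraries. All 3 palmitate libraries were below all controls, with a log2 fold change of -0.27 ± 0.08 (SE) and an adjusted p of 0.0465 by edgeR. The call was kept without control 1 and lost without each other library, at adjusted p of 0.105 (control 3), 0.121 (control 2), 0.107 (palmitate 3), 0.122 (palmitate 2) and 0.0817 (palmitate 1). Sums over all transcripts gave 254, 234 and 240 CPM with palmitate and 271, 297 and 269 CPM in controls. There the groups still stood apart, but the log2 fold change of -0.20 had an adjusted p of 0.0756 by edgeR, and with length offsets it was -0.14 with 0.267. It also missed the threshold with upper-quartile scaling (-0.21, adjusted p 0.0803), with a mean of at least 5 CPM required (-0.25, 0.0522) and with limma-voom (-0.27, 0.0518).

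The main transcript of Slc38a1, protein-coding Slc38a1-202, was at 175, 159 and 171 CPM with palmitate and at 188, 247 and 205 CPM in controls. Palmitate libraries were again all lower, at a log2 fold change of -0.34 ± 0.12 (SE) and an adjusted p of 0.241 by edgeR. The matrix leaves out Slc38a1-206, a transcript that keeps an intron, which was at 40.6, 36.0 and 30.8 CPM with palmitate and at 36.0, 24.6 and 30.0 CPM in controls. It held 15.2% of the gene's reads with palmitate and 10.9% in controls, and its libraries overlapped between groups (log2 fold change 0.25, adjusted p 0.567 by edgeR). The other transcripts above 5% of the reads were Slc38a1-201 and Slc38a1-203, with 5.42% and 5.09% under palmitate and 5.44% and 5.07% in controls.

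The other carriers of glutamine and small neutral amino acids did not pass. Slc1a5 was among the steadiest, at 279, 294 and 292 CPM in palmitate libraries and 286, 278 and 284 CPM in control libraries. Its log2 fold change was 0.03 (95% interval -0.12 to 0.18, adjusted p 0.753 by edgeR), and with length offsets it was -0.04. Slc38a2, a carrier known to be induced when amino acids run short, was at 189, 189 and 210 CPM with palmitate and at 190, 262 and 208 CPM in controls. The groups overlapped, with control 2 high, at a log2 fold change of -0.17 (95% interval -0.44 to 0.11, adjusted p 0.341 by edgeR), or -0.03 without control 2. Slc1a4 was at 25.3, 36.6 and 29.3 CPM with palmitate and at 21.0, 31.7 and 27.0 CPM in controls, and gave 0.20 (95% interval -0.23 to 0.62, adjusted p 0.463 by edgeR). It was 0.03 without palmitate 2 and 0.05 without control 1. Slc1a4 was higher with palmitate in all 3 same-numbered pairs, and with the replicate block its interval was 0.02 to 0.38, which did not pass either (adjusted p 0.082 by edgeR). In pair 2 the excess rested on Slc1a4-201, which had reads in palmitate 2 only. The other transcript, Slc1a4-202, was lower with palmitate in that pair (21.6 against 30.4 CPM) and higher in pairs 1 and 3. Its log2 fold change was -0.07 (adjusted p 0.913 by edgeR on all transcripts). In TPM, the ratio of Slc1a4 to Slc1a5 differed by 0.21 and that of Slc38a1 to Slc38a2 by 0.03 on the log2 scale, with exact permutation p of 0.5 and 0.8 (both 0.8 adjusted).

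A transcript that keeps an intron, Slc1a5-202, made up a large part of the Slc1a5 reads. It held 25.0% with palmitate and 19.95% in controls, beside 72.0% and 76.8% for the protein-coding Slc1a5-201. Slc1a5-202 was at 67.0, 70.5 and 52.2 CPM in palmitate libraries and at 54.7, 42.2 and 58.5 CPM in control libraries, which overlapped (log2 fold change 0.29 ± 0.17 SE, adjusted p 0.48 by edgeR). Slc38a2-202, which also keeps an intron and is left out of the matrix, held 15.3% of the Slc38a2 reads with palmitate and 13.2% in controls, and the protein-coding Slc38a2-201 held the rest. For Slc1a4 the 2 protein-coding transcripts were split unevenly: Slc1a4-201 had 11.1 CPM in palmitate 2 and no read in the other 5 libraries, while Slc1a4-202 took the rest.

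**Figure D3:**
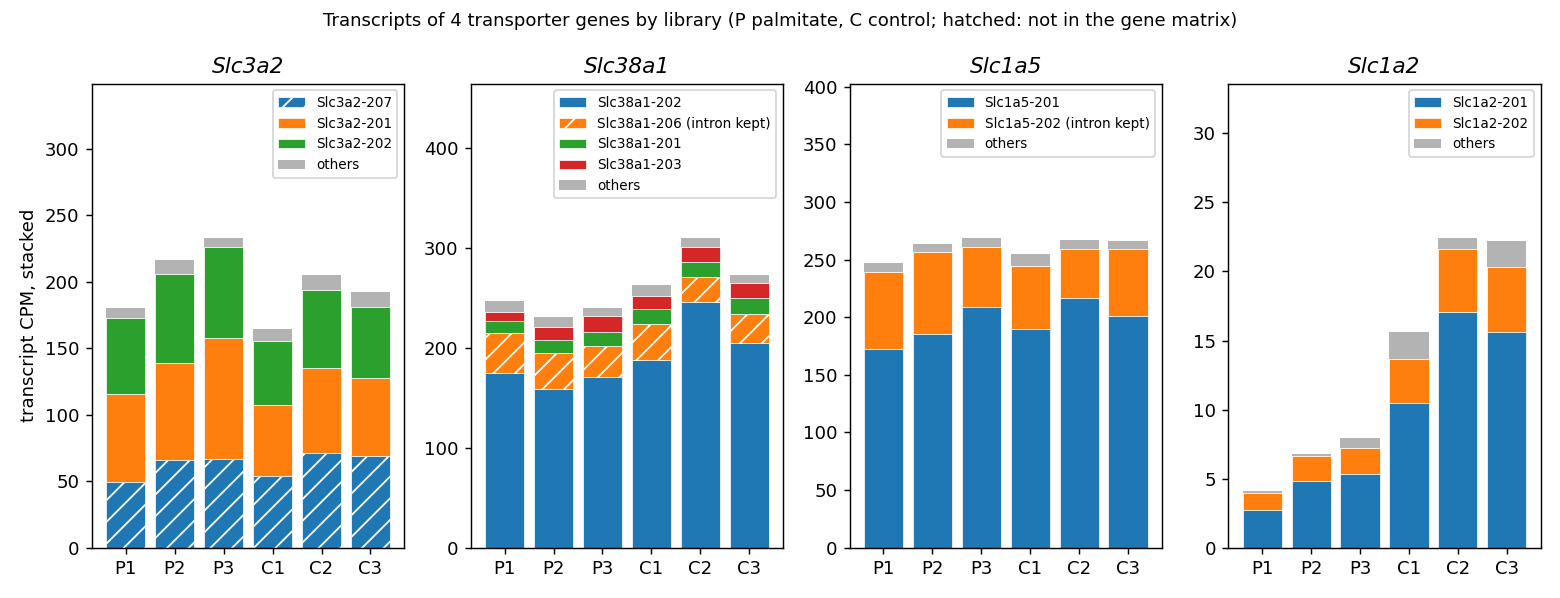
Stacked transcript CPM of Slc3a2, Slc38a1, Slc1a5 and Slc1a2 in palmitate libraries P1 to P3 and control libraries C1 to C3. Hatched transcripts are not counted in the deposited gene matrix. Grey sums the transcripts with under 5% of the reads and is drawn without hatching whether or not the matrix counts them. The matrix leaves out all grey transcripts of Slc3a2 and Slc38a1, and Slc1a5-208 among those of Slc1a5. Slc3a2-207 is as high in controls (54.1 to 71.2 CPM) as with palmitate (49.5 to 66.7 CPM), while both main transcripts of Slc1a2 are lower in all 3 palmitate libraries.

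The arginine and lysine carriers did not pass either. Slc7a1, nearly all of it from Slc7a1-201 with 96.4% of the reads under palmitate and 97.0% in controls, was at 210, 229 and 219 CPM in palmitate libraries and at 217, 300 and 236 CPM in control libraries. The groups overlapped, with control 2 the highest, at a log2 fold change of -0.19 (95% interval -0.47 to 0.08, adjusted p 0.264 by edgeR), or -0.05 without control 2. Slc7a3 was the most variable of the 10, at 29.1, 48.7 and 49.2 CPM with palmitate and at 24.1, 70.7 and 49.4 CPM in controls. Replicate 1 was the lowest in both groups, and the log2 fold change of -0.18 had a 95% interval of -1.25 to 0.88 (adjusted p 0.787 by edgeR). Without control 2 its sign turned (0.20), and without palmitate 1 it was 0.02. Most Slc7a3 reads came from the protein-coding Slc7a3-201, with 73.4% under palmitate and 75.2% in controls, beside 12.6% and 14.3% for Slc7a3-205, which keeps an intron, and 12.1% and 8.73% for the protein-coding Slc7a3-202.

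For the order of their levels, genes were compared in TPM, summed over all transcripts of a gene. The ratios from matrix CPM above are not scaled for length. The 10 transporters together had 716, 757 and 738 TPM in palmitate libraries and 722, 806 and 744 TPM in control libraries, which overlapped. Slc3a2 was the most abundant, at 208 ± 22.2 TPM with palmitate and 198 ± 14.3 TPM in controls (SD, n = 3 each). Slc1a5 followed at 148 ± 1.96 and 146 ± 7.59 TPM, and then Slc7a5 at 123 ± 6.14 and 128 ± 5.57 TPM. These 3 did not overlap each other in either group and together held 65.0% of the summed TPM with palmitate and 62.4% in controls. The Slc3a2 sum takes in short transcripts with incomplete coding sequence, among them Slc3a2-203 of 378 bases and Slc3a2-204 of 239 bases. Slc3a2-204 had 11.3, 60.5 and 5.79 reads in palmitate libraries and 25.6, 10.3 and 46.9 in control libraries. The part of these transcripts in the TPM levels and ratios was not tested. Slc38a2 (65.5 ± 1.23 and 71.3 ± 10.03 TPM) and Slc38a1 (61.1 ± 7.08 and 64.8 ± 5.17 TPM) overlapped each other, as did Slc7a1 (45.1 ± 3.17 and 50.8 ± 6.25 TPM) and Slc7a6 (45.5 ± 1.40 and 44.1 ± 3.38 TPM). Slc7a3, at 26.0 ± 6.19 TPM with palmitate and 29.6 ± 14.1 TPM in controls, overlapped both Slc7a6 and Slc1a2 in controls and neither with palmitate.

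Slc1a2 and Slc1a4, the lowest of the 10, changed places between the groups. Slc1a2 was at 4.53, 4.82 and 5.66 TPM in palmitate libraries and at 16.1, 17.5 and 15.5 TPM in control libraries. Slc1a4 was at 8.05, 11.2 and 8.75 TPM with palmitate and at 6.36, 9.57 and 8.10 TPM in controls. Slc1a2 was thus above Slc1a4 in every control library and below it in every palmitate library, and its share of the summed TPM was 0.679% with palmitate against 2.16% in controls. Slc1a2 was the one gene of the 10 whose TPM did not overlap between the groups.

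**Figure D4:**
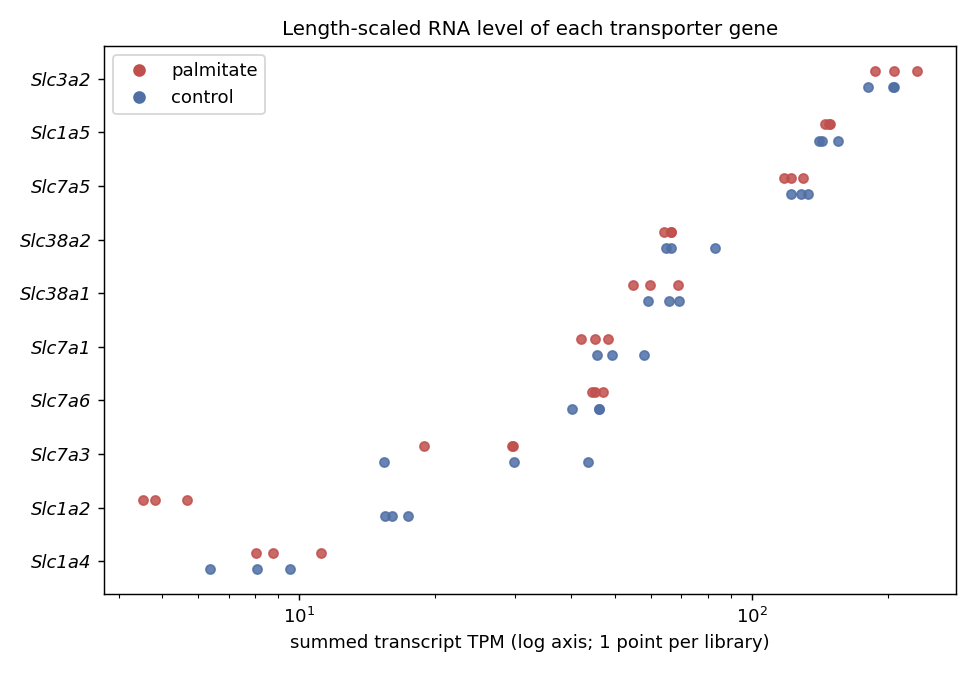
Summed transcript TPM of each gene on a log axis, 1 point per library, with palmitate above control in each row and genes ordered by their control mean. Slc3a2 is the highest (208 TPM with palmitate, 198 TPM in controls), the points of Slc7a1 and Slc7a6 intermix, and at the low end Slc1a2 lies below Slc1a4 with palmitate and above it in controls.

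At the level of single transcripts no call was made. The 10 genes have 63 annotated transcripts in the tables, of which 57 had reads and 39 were tested. None of the 39 was called by edgeR, where 0% of all 39731 transcripts were called. At an unadjusted p under 0.05 there were 4, Slc1a2-201, Slc1a2-202, Slc38a1-202 and Slc3a2-201, where 15.8% of all transcripts passed. With the replicate block 0% of all transcripts were called, and with limma-voom 0% as well. When a mean of at least 5 CPM was required, an alternative chosen after seeing the data, 22 of their transcripts were tested and 7.16% of all 15453 transcripts were called. Of the 22, 1 was called, Slc1a2-201, at a log2 fold change of -1.66 and an adjusted p of 0.0245 by edgeR.

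Other amino acid carrier genes moved in both directions. Of 47 on the list 21 were tested, and 5 were called, 2 higher and 3 lower, near the 22.9% of all genes; the median log2 fold change was 0.08, beside 0.02 for all genes tested. Slc6a19, a neutral amino acid carrier best known from gut and kidney, rose, with 20.9, 12.5 and 14.0 CPM in palmitate libraries and 8.01, 3.65 and 6.03 CPM in control libraries (2.67 times the control level, 95% interval 0.69 to 2.15 on the log2 scale, adjusted p 0.0209 by edgeR). Slc38a6, an orphan relative of the glutamine carriers, also rose, by 0.40 ± 0.11 on the log2 scale (adjusted p 0.0393). Among those that fell, Slc7a14, a relative of the cationic carriers, was at 26.7, 42.0 and 31.6 CPM with palmitate and at 50.8, 72.2 and 64.2 CPM in controls (-0.90 ± 0.19, adjusted p 0.0184 by edgeR). Slc43a3 changed by -0.60 ± 0.11 (adjusted p 0.011), and the taurine carrier Slc6a6 by -0.27 ± 0.08 (adjusted p 0.0466, and 0.0663 with length offsets). Slc43a3, known as a purine nucleobase carrier although it sits in a family of amino acid carriers, was the one of the 5 called in all 6 fits that left out 1 library. In place of 5, those fits called 1 (control 3 left out), 2 (control 2, palmitate 3 or palmitate 1), 3 (palmitate 2) and 5 (control 1). Slc38a9, a lysosomal arginine sensor, did not pass in the matrix, which holds 76.9% of its transcript reads (0.41 ± 0.16, adjusted p 0.101). It passed with the replicate block (adjusted p 0.0329), on transcript sums (0.46, 0.0291) and with length offsets (0.57, 0.0367), all by edgeR.

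Of 39 genes that use or sense amino acids 37 were tested, and 11 were called, 5 higher and 6 lower, where 22.9% of all genes were called. The median log2 fold change of the 37 was -0.03. Mat2a, which makes the methyl donor S-adenosylmethionine from methionine, fell to 372, 356 and 361 CPM in palmitate libraries, against 509, 567 and 528 CPM in control libraries (log2 fold change -0.56 ± 0.07 SE, adjusted p 0.0037 by edgeR). Odc1, the first enzyme of polyamine synthesis from ornithine, was at 844, 976 and 937 CPM with palmitate and at 1220, 1383 and 1316 CPM in controls (-0.51 ± 0.09, adjusted p 0.00733). Both were lower in every palmitate library. Gls2, the liver-type glutaminase, changed by -1.02 ± 0.26 (adjusted p 0.029), at low levels of 3.55 CPM with palmitate and 7.23 CPM in controls.

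The list also holds genes of mTORC1, the kinase complex that responds to amino acids, and these went in both directions or did not pass. Sesn1, a leucine-binding inhibitor of that complex, rose and was at 39.3, 32.2 and 32.0 CPM in palmitate libraries and at 22.3, 20.7 and 20.8 CPM in control libraries (0.70 ± 0.10, adjusted p 0.00551 by edgeR). Rptor, the scaffold subunit of mTORC1, rose by 0.49 ± 0.10 (adjusted p 0.0128), and Rragd, one of the small GTPases that bring the complex to the lysosome, by 0.79 ± 0.21 (adjusted p 0.0288). Rragc, a close relative of Rragd in the same role, fell, at -0.30 ± 0.09 (adjusted p 0.0386). The others of this kind did not pass in the matrix. Sesn3 gave 0.79 (adjusted p 0.0526 by edgeR), Sesn2 0.51 (0.0648), Mtor 0.12 (0.233) and Castor2 0.50 (0.252). Lamtor1 gave 0.09 (0.528), Rheb -0.02 (0.879) and Castor1 -0.03 (0.939). The matrix holds 13.3% of the Sesn3 transcript reads. Sesn3 passed on transcript sums (0.60, adjusted p 0.0026), with length offsets (0.67, 0.00353) and with the replicate block (0.75, 0.0413), all by edgeR. Sesn2 passed with the block (0.50, 0.00286) but not on transcript sums (0.0604) or with length offsets (0.0909), all by edgeR. Bckdha, of branched-chain amino acid breakdown, rose by 0.70 ± 0.14 (adjusted p 0.0122). Mat2a, Sesn1 and Odc1 were called in all 6 fits that left out 1 library. In place of 11, those fits called 3 (control 3 left out), 7 (control 2 or palmitate 3), 8 (palmitate 2 or palmitate 1) and 13 (control 1).

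The factors known to drive transporter genes did not pass. Myc was at 137, 192 and 185 CPM in palmitate libraries and at 164, 186 and 168 CPM in control libraries (log2 fold change -0.01 ± 0.13 SE, adjusted p 0.964 by edgeR). Atf4 was at 449, 608 and 575 CPM with palmitate and at 479, 660 and 627 CPM in controls (-0.11 ± 0.15, adjusted p 0.62 by edgeR). Both overlapped between groups and both were lowest in replicate 1 of each group. Protein levels of these factors were not measured.

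**Figure D5:**
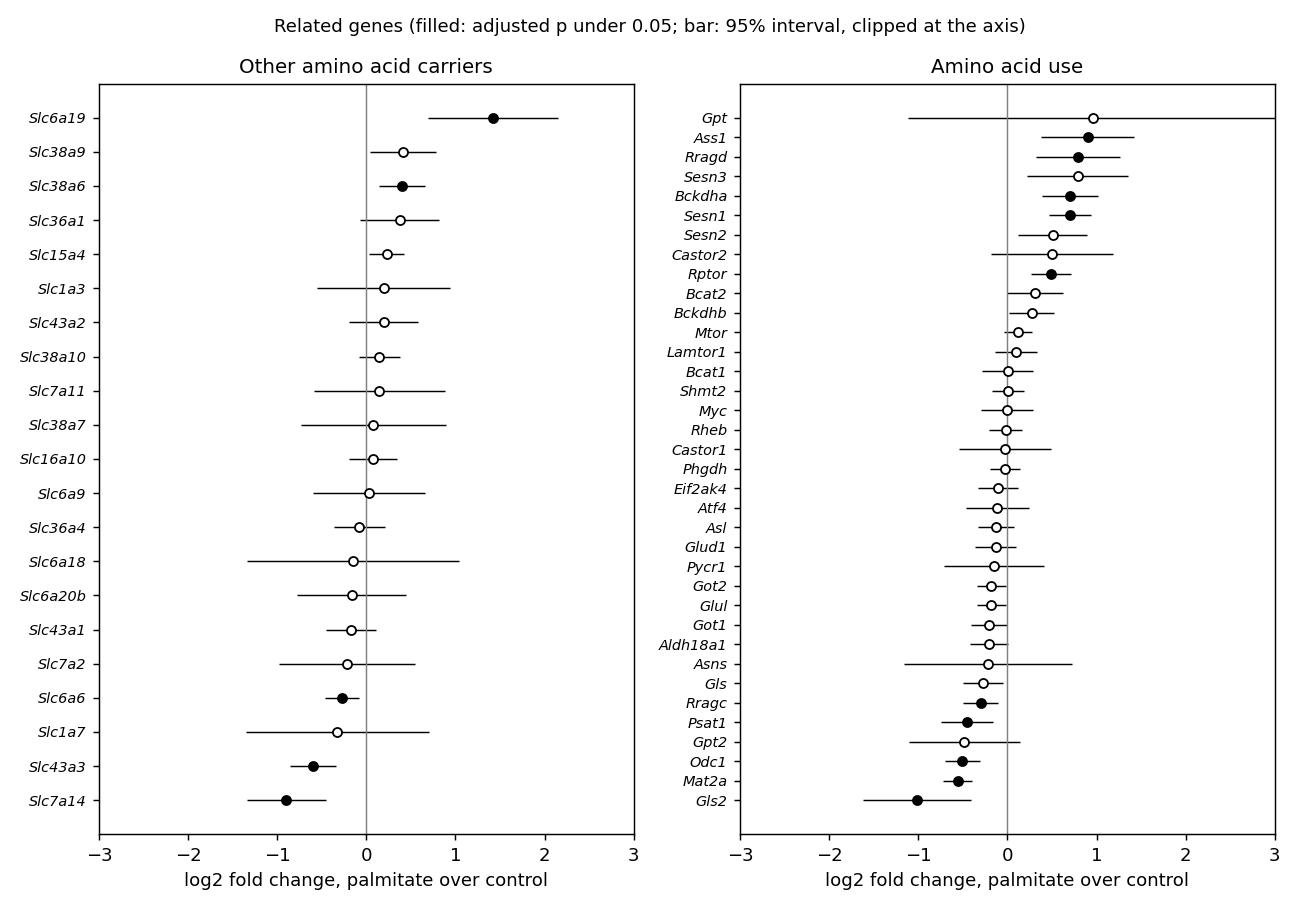
Log2 fold change of palmitate over control with its 95% interval for the 21 other amino acid carrier genes (left) and the amino acid use genes (right) that were tested, 1 of the 37 not drawn; filled points passed an adjusted p under 0.05. Calls lie on both sides of 0, from Slc6a19, the highest, to -0.90 for Slc7a14 on the left and from 0.90 for Ass1 to -1.02 for Gls2 on the right.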

How the data were processed

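Libraries came from RNeasy-extracted RNA by the SMARTER mRNA-Seq kit, per the labels' protocols. Salmon 1.10.0, Trim Galore 0.6.10, the build GRCm39 and DESeq 1.42.0 are listed in the submitters' processing notes. The authors deposited a matrix of gene counts, in whole numbers, and per-library tables of expected counts, TPM and effective length for each transcript. The sources used here do not say how transcripts were summed to genes, or with which strand setting. Of 116224 transcripts, 114808 (98.78%, with at least 99.44% of reads) were matched to genes by identifier, and 29087 of 29370 gene identifiers had a symbol. Reads shared between transcripts of a gene are divided by estimate, and levels of single transcripts carry that uncertainty.

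Counts were filtered by edgeR's filterByExpr, scaled by TMM and tested with glmQLFit and glmQLFTest (edgeR 4.0.16, R 4.3.3); CPM values use TMM-scaled totals. Expected counts were rounded for the transcript test and the transcript sums. Alternatives used limma 3.58.1, DESeq2 1.42.0, other scalings and filters, and each library left out. The test was first tried on simulated data. Deviations from the group means were weakly correlated between same-numbered palmitate and control libraries (0.23, 0.13 and 0.15, with different numbers at -0.18 to 0.061). Replicate number was therefore also fitted as a block. Each mean is over 3 libraries, so same-number and different-number correlations are not independent and cannot establish a pairing. The labels give replicate numbers but name no pairs. Replicates differed by more than sampling noise (chi-square per gene 11.5 to 37.6), and mitochondrial genes held 0.899% to 1.14% of counts.

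The genes and both gene lists were chosen with earlier results of these data known. Named were all 10 transporters, up to 8 called genes with the smallest adjusted p of each list, Myc and Atf4, and transcripts with at least 5% of a gene's reads in either group; Slc38a9, Rragc, Ass1 and the mTORC1 genes that did not pass were added after their values were seen. 1 gene that the rule names is not reported here.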

Additional observations from a re-analysis of the deposited data

How the results depend on the processing

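Slc1a2 was lower with palmitate and called in every setting tried for it. Of 150 alternative values for the 10 genes, 132 kept their direction and side of the threshold, 15 kept their direction but lost the threshold, all of them for Slc3a2 and Slc38a1, and 3 changed sign, none of those past it. Of 28 for the ratios, compared by sign alone, 23 kept it and 5 changed. The sign changes were Slc1a5 with length offsets (-0.036), Slc7a3 with a library left out (-0.51 to 0.20), Slc7a6 over Slc3a2 with a library left out (-0.12 to 0.071), and Slc38a1 over Slc38a2 with a library left out (-0.074 to 0.14) and from matrix CPM (-0.11). The cause was not tested. Transporters called numbered 1 from transcript sums and 1 with length offsets, and 1 to 3 with a library left out. With a library left out, all genes called ranged over 690 to 3433, other carriers over 1 to 5 and amino acid use genes over 3 to 13; fewer libraries were then fitted. Transcripts of the 10 genes called numbered 1 with a mean of at least 5 CPM, with fewer transcripts tested. In the fit with a replicate block, 3993 of 12068 genes (33.1%) were called. Calls were made for 3 of 10 transporters, 6 of 21 other carriers and 16 of 37 amino acid use genes. Counts were lowest for Slc1a2, at 117 in its lowest library. The wide interval of Slc7a3, with 700 counts or more in every library, goes with the spread between its replicates, and its SE was 0.43 without the block and 0.16 with it.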

Other observations

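Transcripts annotated as keeping an intron held a sizeable share of the reads of 3 glutamine carriers and of the arginine and lysine carrier Slc7a3. For Slc1a5 the share was 30.2%, 29.5% and 22.0% in palmitate libraries and 25.1%, 18.6% and 24.2% in control libraries. For Slc38a1 it was 19.6%, 18.6% and 15.3% with palmitate and 16.5%, 9.96% and 13.2% in controls. Slc38a2 had 16.7%, 16.0% and 12.5% with palmitate and 16.5%, 9.89% and 13.6% in controls. In all 3 glutamine carriers the groups overlapped, palmitate replicate 3 was the lowest of its group and control replicate 2 the lowest of its own. Slc7a3 had 7.61%, 12.7% and 16.9% with palmitate and 19.8%, 13.5% and 13.5% in controls, also with overlap. Slc7a6 had 4.44% to 8.45% with palmitate and 3.31% to 6.67% in controls, and Slc7a1 had 2.37% to 3.64% and 1.68% to 2.60%. For Slc7a5 and Slc3a2 the share was under 1% in every library, and Slc1a2 and Slc1a4 have no such transcript in the annotation used.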
